A study of Rattus norvegicus with 9 samples.

Results

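The integrated stress response is the programme that cells switch on when protein folding, amino acid supply or mitochondrial function is disturbed. It was followed here through 10 listed genes, Nupr1, Fgf21, Trib3, Ddit3, Atf3, Atf4, Asns, Chac1, Sesn2 and Psat1, taken by their symbol in the platform annotation out of 18166 named genes. Of the 10, 9 had a probe set of their own and all 9 passed the filter on dim genes; Sesn2 is not named in that annotation, so its RNA level was not analysed here and it enters the promoter search alone. The genes were chosen by pathway with results of these arrays in view: log2 levels of Nupr1 (higher) and Fgf21 (lower) after transplantation, set against progenitor clusters without it, were known. That comparison is therefore given for all listed genes as a description with no test. The same 2 genes are given without a test wherever the arrays of transplanted livers enter.

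The arrays came from livers of female F344 rats that had received 2 injections of retrorsine (30 mg/kg, 2 weeks apart) and lost part of the liver 4 weeks after the second. Retrorsine, a plant alkaloid, blocks division of most hepatocytes, and the liver then regrows from clusters of progenitors called SHPCs, small cells that resemble hepatocytes. Material was cut by laser from frozen sections of 7 µm, and there were 3 groups of 3 arrays: SHPC clusters without transplantation, SHPC clusters of livers given Thy1+ cells, and hepatocytes beside SHPC clusters without transplantation. The Thy1+ donor cells were DPPIV+ and went through the spleen into rats described as DPPIV−; the hepatocyte arrays carry a description of transplanted SHPCs, and their cell type label was followed instead. All 3 groups share retrorsine and partial hepatectomy, so none is an untreated liver. No source used here gives the rats' age, the time of sampling or the number of animals. The p-values therefore measure the spread between these arrays, which may be technical or may come from regions of one animal.

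Values are log2 of the deposited intensity. SHPC array 2 and hepatocyte array 2 stood apart, with median intensities of 24.1 and 23.0 on the linear scale against 19.6 to 20.6 on the other arrays, and no array of transplanted livers was of that kind. Hepatocyte markers were bright in all groups, with a summed intensity over 11 measured markers of 40529 to 48115. Markers of Kupffer cells and macrophages were present too: the summed intensity of 14 markers was 2462 to 3338 in hepatocytes, 1770.5 to 2948 in SHPCs and 3414 to 4046 in SHPCs of transplanted livers. All 14 lay higher in the last group than in SHPCs without transplantation (median log2 difference 0.59), while against hepatocytes 12 of 14 did (median 0.28). Other cell types went both ways. Against SHPCs without transplantation all 6 endothelial markers tested lay higher (median 0.10), as did 8 of 9 stellate cell and fibroblast markers (0.24). There 4 of 7 cholangiocyte markers did (0.08). Against hepatocytes 3 of 6 endothelial (median 0.05), 7 of 9 stellate cell and fibroblast (0.28) and 5 of 7 cholangiocyte markers (0.47) lay higher. The summed intensity of the cholangiocyte markers was 169 to 202 against 127 to 144 in hepatocytes. Neutrophil markers lay higher for 1 of 7 in both comparisons (median −0.20 in each). Against SHPCs 1 of 5 B cell, 1 of 3 erythroid and 4 of 9 T and NK cell markers lay higher (−0.08, −0.28 and −0.01). Against hepatocytes it was 2 of 5, 1 of 3 and 8 of 9 (−0.19, −0.06 and 0.08). The part of these markers in the results below was not tested. In such bulk samples, fewer cells of a type and less RNA per cell cannot be told apart.

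As background, the response starts with kinases that phosphorylate the translation factor eIF2, which slows general protein synthesis and favours translation of the transcription factor ATF4. Because ATF4 is controlled largely at translation, its mRNA need not follow its activity. ATF4 and its partners then act on genes for other transcription factors (Atf3, Ddit3), for feedback (Trib3), for amino acid synthesis and handling (Asns, Psat1, Chac1), for nutrient sensing (Sesn2) and for secreted signals such as the liver hormone FGF21.

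The letters TGATGNAA, the core of the element that ATF4 binds together with C/EBP partners, were searched on both strands in the 250 bases before each gene's start in RefSeq's promoter table (GRCr8). They were found in 4 of the 9 listed genes with an entry there, against 3.40% of all 33469 promoters. Atf3 had no entry. The 4 stretches are shown because Nupr1, Fgf21 and Chac1 hold the same 8 letters, while on the arrays of transplanted livers Nupr1 lay above and Fgf21 below all other arrays and Chac1 overlapped with them. Capitals mark the match, which in each case lies on the strand opposite to the gene; the sequences run 5′ to 3′ on the gene's own strand.
Nupr1: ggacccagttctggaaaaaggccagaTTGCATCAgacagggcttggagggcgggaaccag
Fgf21: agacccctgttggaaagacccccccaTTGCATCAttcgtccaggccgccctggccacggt
Chac1: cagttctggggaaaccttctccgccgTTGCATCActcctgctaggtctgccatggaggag
Trib3: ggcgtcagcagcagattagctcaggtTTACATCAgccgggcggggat

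The Nupr1 stretch is chr1:190645923-190645982 (minus strand), with the match 55 to 48 bases before the start. The Fgf21 stretch is chr1:105221486-105221545 (minus strand), with the match 143 to 136 bases before the start. The Chac1 stretch is chr3:126795938-126795997 (plus strand), with the match 167 to 160 bases before the start. The Trib3 stretch is chr3:161275534-161275580 (minus strand), with the match 21 to 14 bases before the start, and it reads TGATGTAA on the opposite strand. The form TGATGCAA, read on that strand in the other 3, was present in 0.693% of all promoters. No match lay in the windows of Ddit3, Atf4, Asns, Sesn2 and Psat1, which says only that these letters are not there.

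**Figure D1:**
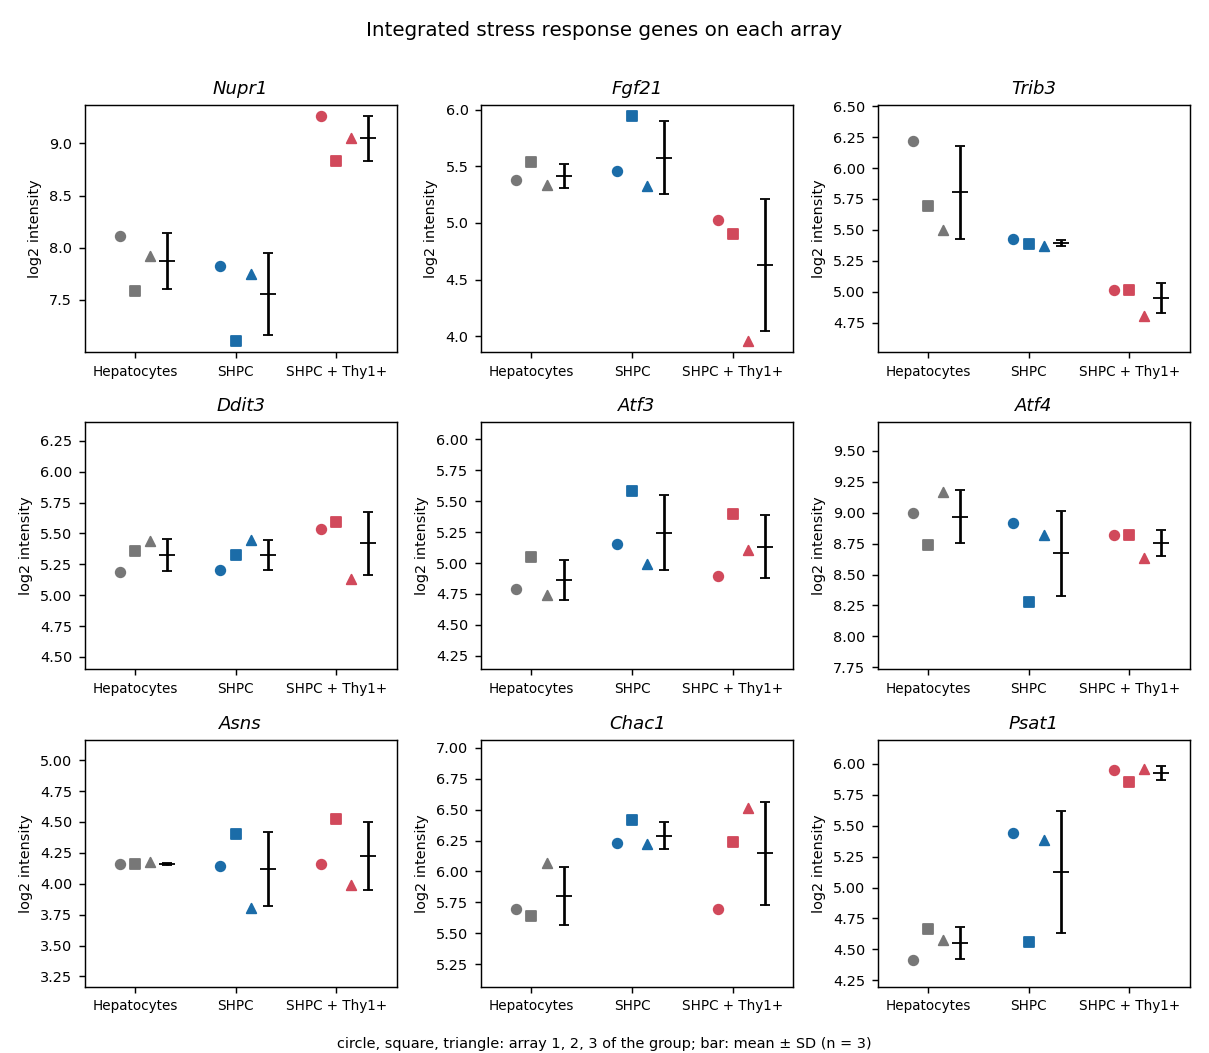
Log2 intensity of the 9 measured genes on each array, in hepatocytes, SHPCs and SHPCs of livers given Thy1+ cells (3 arrays each); symbols mark arrays 1, 2 and 3 of a group and bars give the mean ± SD. Every panel spans at least 2 log2 units and starts above 0. For Nupr1 and Psat1 the arrays of transplanted livers lie above all others, and for Fgf21 and Trib3 below all others.

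Against SHPCs without transplantation, SHPCs of transplanted livers held more Nupr1 and Psat1 RNA and less Fgf21 and Trib3 RNA, while Atf4, Ddit3, Atf3, Asns and Chac1 overlapped. The listed genes thus did not lie to one side: 5 of 9 differences were above 0 and the median was 0.08, beside a median of 0.02 over all 15793 genes tested. The arrays of the groups did not overlap for 4 of the 9, where 15.8% of all genes tested had that property (10.6% higher and 5.23% lower), and nothing is read from this count because the comparison was in view when the genes were listed.

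Nupr1 encodes a small stress-induced chromatin protein. Its log2 level was 7.82, 7.11 and 7.74 on SHPC arrays 1, 2 and 3, and 9.26, 8.83 and 9.05 on the arrays of transplanted livers. Hepatocytes lay at 8.11, 7.58 and 7.92. The groups of SHPC clusters were well apart, while hepatocytes and SHPCs without transplantation overlapped. The log2 difference between the SHPC groups was 1.49 ± 0.22 (SE, limma), or 2.81-fold, and 1.27 without SHPC array 2, the lowest array. Against hepatocytes SHPCs of transplanted livers lay higher by 1.18 ± 0.22 (SE), or 2.26-fold, and by 1.03 without both arrays that stood apart.

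Fgf21, the gene of a hormone that liver releases in fasting and under stress, lay the other way. Its log2 level was 5.46, 5.95 and 5.33 in SHPCs and 5.03, 4.90 and 3.96 in SHPCs of transplanted livers, with hepatocytes at 5.38, 5.54 and 5.34. Array 3 of the transplanted livers was the lowest by a wide margin, and the other 2 arrays of that group also lay under every array of the other groups. On that array 3 the signal was weak, at 15.6 on the linear scale under the array's median of 19.9. In SHPCs and in hepatocytes the highest value was on array 2, the array that stood apart. The difference between the SHPC groups was −0.95 ± 0.27 (SE), or 1.93-fold lower, and −0.61 without Thy1 array 3. Against hepatocytes it was −0.79 ± 0.27 (SE), and −0.45 without that array.

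Psat1 encodes phosphoserine aminotransferase, an enzyme of serine synthesis. Its log2 level was 4.41, 4.66 and 4.58 in hepatocytes, 5.44, 4.56 and 5.39 in SHPCs and 5.95, 5.86 and 5.96 in SHPCs of transplanted livers. The last group was tight and above all other arrays, and SHPC array 2 lay among the hepatocytes while SHPC arrays 1 and 3 lay between. The difference between the SHPC groups was 0.79 ± 0.22 (SE), or 1.73-fold, and 0.51 without SHPC array 2.

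Trib3 encodes a pseudokinase that damps ATF4 and insulin signalling. Its log2 level was 6.22, 5.70 and 5.50 in hepatocytes, 5.42, 5.39 and 5.37 in SHPCs and 5.02, 5.02 and 4.81 in SHPCs of transplanted livers. No 2 groups overlapped, and hepatocytes had the widest spread. The difference between the SHPC groups was −0.45 ± 0.18 (SE), or 1.36-fold lower, and −0.35 after median centring, a scaling that adds 0.103 to every difference between these groups.

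The transcription factor genes overlapped between the SHPC groups. Atf4 lay at 8.92, 8.28 and 8.82 in SHPCs and at 8.82, 8.82 and 8.63 in SHPCs of transplanted livers, a difference of 0.08 ± 0.19 (SE). Ddit3, which encodes the pro-apoptotic factor CHOP, lay at 5.21, 5.33 and 5.45 against 5.54, 5.59 and 5.13, a difference of 0.09 ± 0.16 (SE). Atf3, an early stress-induced repressor, lay at 5.15, 5.58 and 5.00 against 4.89, 5.40 and 5.11, a difference of −0.11 ± 0.19 (SE). None of these differences exceeded its SE, and over the alternatives Atf4 ranged from −0.16 to 0.21 and Atf3 from −0.24 to 0.07.

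Of the metabolic genes, Asns, the asparagine synthetase gene, lay at 4.14, 4.40 and 3.81 in SHPCs and 4.16, 4.52 and 3.99 in SHPCs of transplanted livers, a difference of 0.11 ± 0.18 (SE). Its signal was weak on all arrays, where the 25th percentile of the probe sets ranged from 2.85 to 3.14. Chac1, whose product breaks down glutathione, lay at 6.23, 6.42 and 6.22 against 5.69, 6.24 and 6.51, a difference of −0.14 ± 0.21 (SE), with the widest spread among the arrays of transplanted livers. Over the alternatives Asns ranged from −0.05 to 0.29 and Chac1 from −0.32 to 0.08, so the sign of both, like that of Atf4 and Atf3, was not settled.

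**Figure D2:**
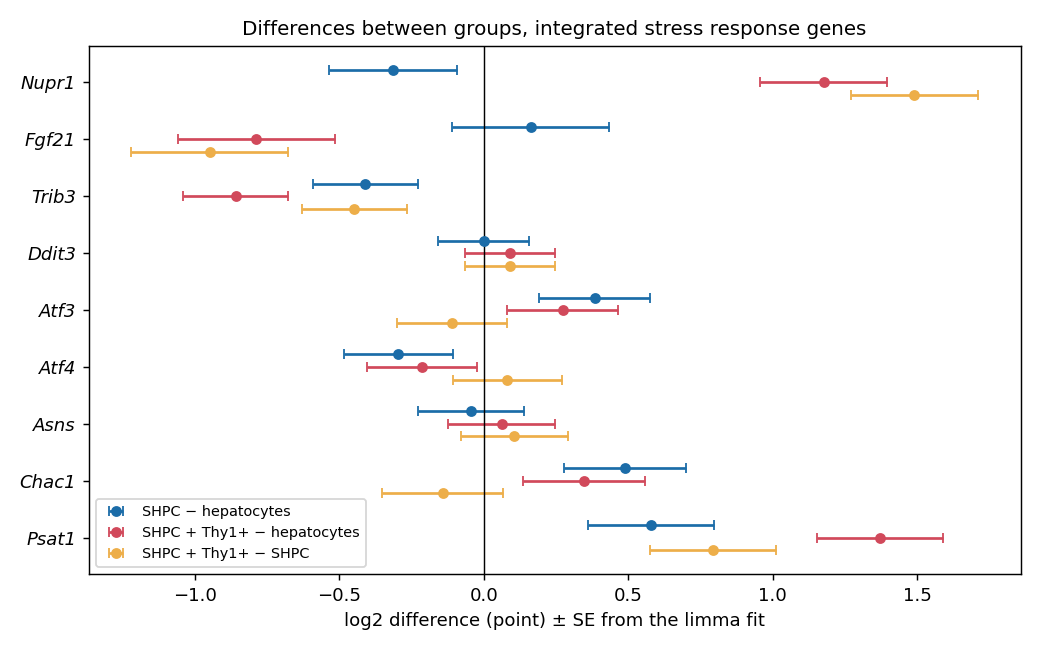
Log2 differences between the groups for the 9 measured genes, with the SE of the limma fit as bars; blue, SHPCs minus hepatocytes, red, SHPCs of transplanted livers minus hepatocytes, and yellow, SHPCs of transplanted livers minus SHPCs. Each pair of comparisons shares 1 group of arrays. Nupr1 at 1.49 and Psat1 at 1.37 are the farthest to the right, and Fgf21 at −0.95 and Trib3 at −0.86 the farthest to the left.

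SHPC clusters without transplantation were set against the hepatocytes beside them to ask whether the progenitor clusters differ in these genes. None of the 9 genes passed at an adjusted p under 0.05 (limma, Benjamini-Hochberg over all genes tested), where 0.0633% of all genes tested did, 5 higher and 5 lower. With the array number as a block those counts became 23 and 12, still with 0 of the 9 genes. At an unadjusted p under 0.05 there were 3 of the 9, Trib3, Chac1 and Psat1, against 4.12% of all genes. Trib3 and Chac1 were the 2 genes whose arrays did not overlap, a property of 5.22% of all genes.

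Trib3 lay lower in SHPCs by 0.41, with a log2 difference of −0.41 (95% interval −0.81 to −0.0049, limma adjusted p = 1); without hepatocyte array 1, the highest, it was −0.20, with an unadjusted limma p of 0.184, and with array weights −0.19. Chac1 had hepatocyte values of 5.69, 5.64 and 6.07 and lay higher in SHPCs by 0.49 (95% interval 0.02 to 0.96, limma adjusted p = 1), and by 0.23 with array weights. Psat1 differed by 0.58 ± 0.22 (SE, 95% interval 0.09 to 1.06, limma adjusted p = 1). The Psat1 value turned on SHPC array 2: without it the difference was 0.86 (limma adjusted p = 0.0321), and without both arrays that stood apart 0.92 (limma adjusted p = 0.0262). Down-weighting noisy arrays gave 0.81 (limma adjusted p = 0.00407), and with the other alternatives tried it ranged from 0.536 to 1.

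The other 6 genes differed less clearly between SHPCs and hepatocytes. Atf3, with hepatocytes at 4.79, 5.05 and 4.74, differed by 0.38 (95% interval −0.04 to 0.81), and by 0.21 without SHPC array 2. Atf4, with hepatocytes at 9.0, 8.74 and 9.17, differed by −0.30 (−0.72 to 0.13), and Nupr1 by −0.31 (−0.81 to 0.18), each with the lowest value on SHPC array 2. Without that array they differed by −0.10 and −0.09; Atf4 was at −0.20 without hepatocyte array 3 and Nupr1 at −0.19 without hepatocyte array 1. For Fgf21 the difference was 0.16 (−0.44 to 0.77), and −0.02 without SHPC array 2. Asns, at 4.16, 4.16 and 4.17 in hepatocytes, differed by −0.04 (−0.46 to 0.37), and Ddit3, at 5.19, 5.36 and 5.44, by 0.0001 (−0.35 to 0.35). These intervals leave room for differences of up to 0.81 in size on the log2 scale, so the arrays do not show that the groups are alike in these genes.

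SHPCs of transplanted livers were then set against the same hepatocytes, a comparison in which cell type and transplantation change together and which shares its arrays with those above. Psat1 was 2.59-fold higher, a log2 difference of 1.37 ± 0.22 (SE, limma adjusted p = 0.0206), with each of 3 arrays above each of 3. Of the 7 genes tested here, leaving aside Nupr1 and Fgf21, it was the 1 that passed, where 1.18% of all genes tested did. The genes were listed with another comparison of the same transplanted-liver arrays in view. The p-values of these 7 genes are therefore not independent of that choice. The Psat1 difference stayed between 1.30 and 1.46 over the alternatives, with an adjusted p between 1.81e-05 and 0.118. The call ended without any one of the hepatocyte arrays 1, 2 and 3 (limma adjusted p = 0.0772, 0.0641 and 0.0861), without any one of the Thy1 arrays 1, 2 and 3 (0.111, 0.0982 and 0.118), and after median centring (0.0640). Without SHPC array 2, which enters through the shared spread, the adjusted p was 9.69e-04 by the same fit.

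Trib3 was 1.81-fold lower, a log2 difference of −0.86 ± 0.18 (SE, limma adjusted p = 0.0633), with no overlap between arrays; it missed the threshold as fitted. With the alternatives tried its adjusted p ranged from 0.00693 (array weights) to 0.278 (without Thy1 array 3), and it passed without SHPC array 2 (0.0384). Chac1 differed by 0.35 (95% interval −0.12 to 0.82), Atf3 by 0.27 (−0.15 to 0.70) and Atf4 by −0.21 (−0.64 to 0.21). Ddit3 differed by 0.09 (−0.26 to 0.44) and Asns by 0.06 (−0.35 to 0.47), with limma adjusted p-values of 0.629 to 0.931 for these 5 genes. Single arrays moved some of these values: Chac1 was at 0.57 without Thy1 array 1 and 0.16 without Thy1 array 3, Atf3 at 0.14 without Thy1 array 2, and Atf4 at −0.11 without hepatocyte array 3 and −0.33 without hepatocyte array 2. With array weights Atf4 was at −0.37 and passed (limma adjusted p = 0.0311), as it did under no other alternative. In all, the arrays did not overlap for 4 of the 9 genes (Nupr1, Psat1, Fgf21 and Trib3), where 19.2% of all genes tested had that property (12.6% higher and 6.64% lower). Nothing is read from this count either, since the values of Nupr1 and Fgf21 on the same arrays were known when the genes were listed.

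The wider stress pathways were read from 12 lists with 181 other genes, of which 162 were tested. Between SHPCs of transplanted livers and hepatocytes 6 of them passed (limma, adjusted p under 0.05), 3 higher and 3 lower, where 0.861% of all genes passed higher and 0.317% lower. Between SHPCs and hepatocytes 0 passed, with 10 of 162 at an unadjusted p under 0.05, 5 in each direction, near the 4.12% of all genes. Between the SHPC groups 0 passed too, where 0.00633% of all genes did. Of these pathway genes, 15 were above and 6 below the clusters without transplantation at an unadjusted p under 0.05, a range that held 5.07% and 2.29% of all genes.

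**Figure D3:**
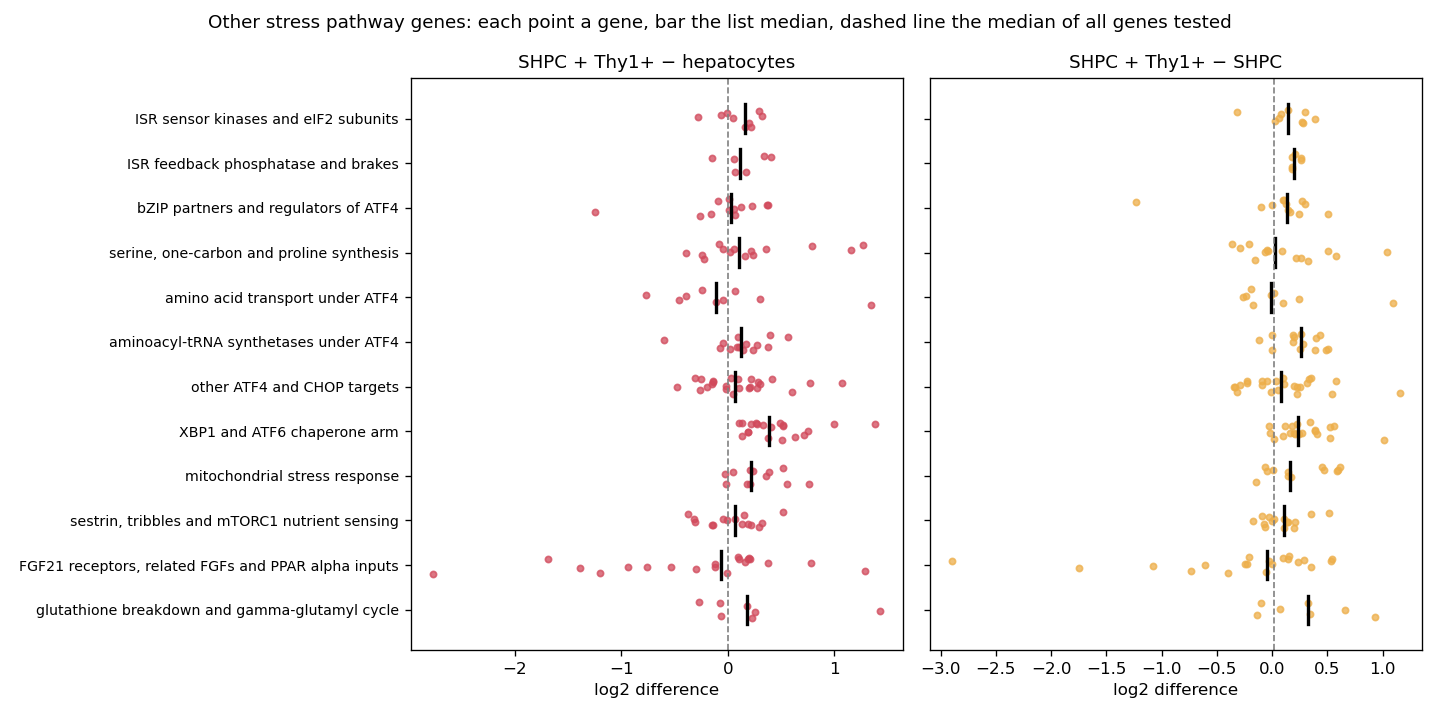
Log2 differences of the 162 other stress pathway genes by list, with SHPCs of transplanted livers minus hepatocytes on the left and minus SHPCs on the right; each point is a gene, the black bar the list's median and the dashed line the median of all genes tested. The chaperone list lies to the right of 0 on the left panel for all 20 genes, and the list around FGF21 spreads farthest to the left, to −2.77 for Acot1.

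No gene among the sensors and brakes of the response passed in the comparison with hepatocytes. Of 9 tested kinase and eIF2 genes, 6 lay higher in SHPCs of transplanted livers than in hepatocytes, with a median log2 difference of 0.16 and 0 passing. This direction rested on hepatocyte array 2, without which 3 of 9 lay higher and the median was −0.06. The kinase gene of the endoplasmic reticulum arm, Eif2ak3 (PERK), differed by 0.20 ± 0.16 (SE, limma adjusted p = 0.704). Of 6 feedback genes 5 lay higher, with a median of 0.12 and 0 passing, and Ppp1r15a, whose product GADD34 helps to remove the phosphate from eIF2, differed by 0.34 ± 0.16 (SE, limma adjusted p = 0.520).

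Among 12 partners and regulators of ATF4 the median was 0.03 and 1 passed. That gene was Atf5, a relative of Atf4 tied to mitochondrial and amino acid stress. Its log2 level was 9.14, 9.75 and 9.55 in hepatocytes, 9.24, 9.67 and 9.47 in SHPCs and 8.26, 8.46 and 7.98 in SHPCs of transplanted livers. Hepatocytes and SHPCs overlapped, and all 3 arrays of transplanted livers lay below both. Atf5 fell by 1.25 on the log2 scale against hepatocytes (difference −1.25 ± 0.20, SE, limma adjusted p = 0.0206). It differed by −1.23 ± 0.20 between the SHPC groups, where it did not pass (limma adjusted p = 0.140).

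Enzymes of serine, one-carbon and proline synthesis had a median of 0.11, with 9 of 14 higher and 1 passing. Got1, the cytosolic aspartate aminotransferase gene, was at 9.65, 9.37 and 9.44 in hepatocytes, 10.35, 9.97 and 10.19 in SHPCs and 10.75, 10.59 and 10.92 in SHPCs of transplanted livers. The 3 groups did not overlap and stood in that order. Got1 rose by 1.27 ± 0.15 against hepatocytes (SE, limma adjusted p = 0.00585). It differed by 0.69 ± 0.15 in SHPCs against hepatocytes (limma adjusted p = 0.354) and by 0.58 ± 0.15 between the SHPC groups (limma adjusted p = 0.367). The neighbours of Psat1 in serine synthesis did not pass: Phgdh, the first enzyme, differed by −0.08 ± 0.20, near the 25th percentile of the arrays, and Psph, the last, by 0.36 ± 0.19 (limma adjusted p = 0.912 and 0.564).

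Amino acid transporters under ATF4 had a median of −0.11 (3 of 9 higher, 0 passing). Slc43a1, a carrier of branched amino acids, was at 1.35 ± 0.30 (SE, limma adjusted p = 0.0813) and Slc7a5 at −0.39 ± 0.14 (limma adjusted p = 0.339). Aminoacyl-tRNA synthetases had a median of 0.12 (11 of 14 higher, 0 passing). Among these Gars1, Iars1 and Yars1 lay above 0 only with hepatocyte array 2 kept. The threonyl enzyme gene Tars1 was at 0.57 ± 0.20 (limma adjusted p = 0.332) and Xpot of the same list at −0.60 ± 0.26 (limma adjusted p = 0.452). The list of other ATF4 and CHOP targets had a median of 0.07 (14 of 24 higher, 0 passing). Its members Cbs and Cth, which carry sulfur from homocysteine to cysteine, lay higher by 0.60 ± 0.12 and 1.07 ± 0.32 (limma adjusted p = 0.0558 and 0.204). In the same list Gdf15, a stress hormone gene, differed by −0.26 ± 0.19 (limma adjusted p = 0.684).

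The chaperone arm, which XBP1 and ATF6 drive in parallel to ATF4, had the highest median of the 12 lists in the comparison with hepatocytes. All 20 of its genes lay above 0 in SHPCs of transplanted livers against hepatocytes, with a median of 0.39, 14 of 20 without overlap (12.6% of all genes lay higher without overlap) and 1 passing; after cyclic loess 18 of 20 lay above 0 and the median was 0.20. Pdia6, a disulfide isomerase gene, was at 8.13, 7.71 and 7.99 in hepatocytes, 8.54, 8.09 and 8.51 in SHPCs and 8.91, 8.85 and 9.05 in SHPCs of transplanted livers. It rose by 0.99 ± 0.17 against hepatocytes (SE, limma adjusted p = 0.0248). Hspa5, the gene of the chaperone BiP, differed by 0.38 ± 0.13 (limma adjusted p = 0.307). In SHPCs without transplantation against hepatocytes 18 of the 20 genes also lay above 0, with a median of 0.14. Without SHPC array 2 all 20 did, with a median of 0.28. Between the SHPC groups 18 of 20 lay above 0, with a median of 0.23, and 11 of 20 with a median of 0.10 after cyclic loess. Without SHPC array 2 the count was 16 of 20 and the median 0.11. With all arrays kept, the lists of glutathione breakdown (0.32) and aminoacyl-tRNA synthetases (0.26) had higher medians there than the chaperones (0.23). SHPC array 2 was the lowest SHPC array for every tested gene of those lists except Ggt6. Their medians without that array are not given here, so this order is not shown to hold without it.

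Genes of the mitochondrial stress response had a median of 0.22 (10 of 12 higher, 0 passing), those of sestrins, tribbles and nutrient sensing 0.07 (8 of 15, 0 passing) and those of glutathione breakdown 0.18 (4 of 7, 0 passing). In the mitochondrial list Hspa9, Clpp and Yme1l1 lay above 0 only with hepatocyte array 2 kept. That array was the lowest of its group for every tested gene of that list. Sesn1, a relative of Sesn2, differed by 0.32 ± 0.16 (SE, limma adjusted p = 0.537) against hepatocytes and by 0.52 ± 0.16 (limma adjusted p = 0.469) between the SHPC groups.

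The list around FGF21 held its receptors, related growth factors and genes of PPAR alpha, the fasting receptor that drives Fgf21. Against hepatocytes 1 of its 20 tested genes passed higher and 2 lower in transplanted livers. In all, 9 lay above 0 and 11 below, with a median of −0.06. Cpt1a, which lets fatty acids into mitochondria, was at 9.85, 9.32 and 9.81 in hepatocytes, 9.52, 9.41 and 10.22 in SHPCs and 7.77, 7.99 and 8.15 in SHPCs of transplanted livers. It fell by 1.69 on the log2 scale (difference −1.69 ± 0.23, SE, limma adjusted p = 0.0112). Cyp4a1, a fatty acid hydroxylase gene, was at 11.38, 10.61 and 11.36, then 10.66, 10.44 and 11.32, then 9.78, 9.79 and 9.62 in the same order of groups. It fell by 1.39 (difference −1.39 ± 0.26, SE, limma adjusted p = 0.0368). Fgf1, a growth factor gene, was at 5.08, 5.49 and 5.07, then 5.49, 5.49 and 5.39, then 5.84, 6.02 and 6.12, and rose by 0.78 ± 0.15 (SE, limma adjusted p = 0.0437). Acot1, an acyl-CoA thioesterase gene named after its values were seen, had the lowest difference of the list at −2.77 ± 0.66 (SE) and did not pass (limma adjusted p = 0.100). It lay at 4.71, 4.77 and 6.91 in hepatocytes, 4.94, 4.90 and 6.93 in SHPCs and 3.04, 2.14 and 2.89 in SHPCs of transplanted livers. Array 3 was far above arrays 1 and 2 in the first pair of groups. Ppargc1a, also named after its values were seen, went the other way, with the largest rise of the list. Hepatocytes were at 6.78, 5.94 and 5.79 and SHPCs at 7.45, 6.30 and 7.00. SHPCs of transplanted livers, at 7.51, 7.33 and 7.55, lay above all hepatocyte arrays and overlapped with SHPCs. Ppargc1a did not pass.

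For Cpt1a, Cyp4a1 and Fgf1 the arrays of transplanted livers lay apart from both other groups, as they did for Fgf21. Between the SHPC groups the differences were −1.75 ± 0.23, −1.08 ± 0.26 and 0.53 ± 0.15 (SE) for Cpt1a, Cyp4a1 and Fgf1, and none passed (limma adjusted p = 0.0752, 0.301 and 0.440).

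**Figure D4:**
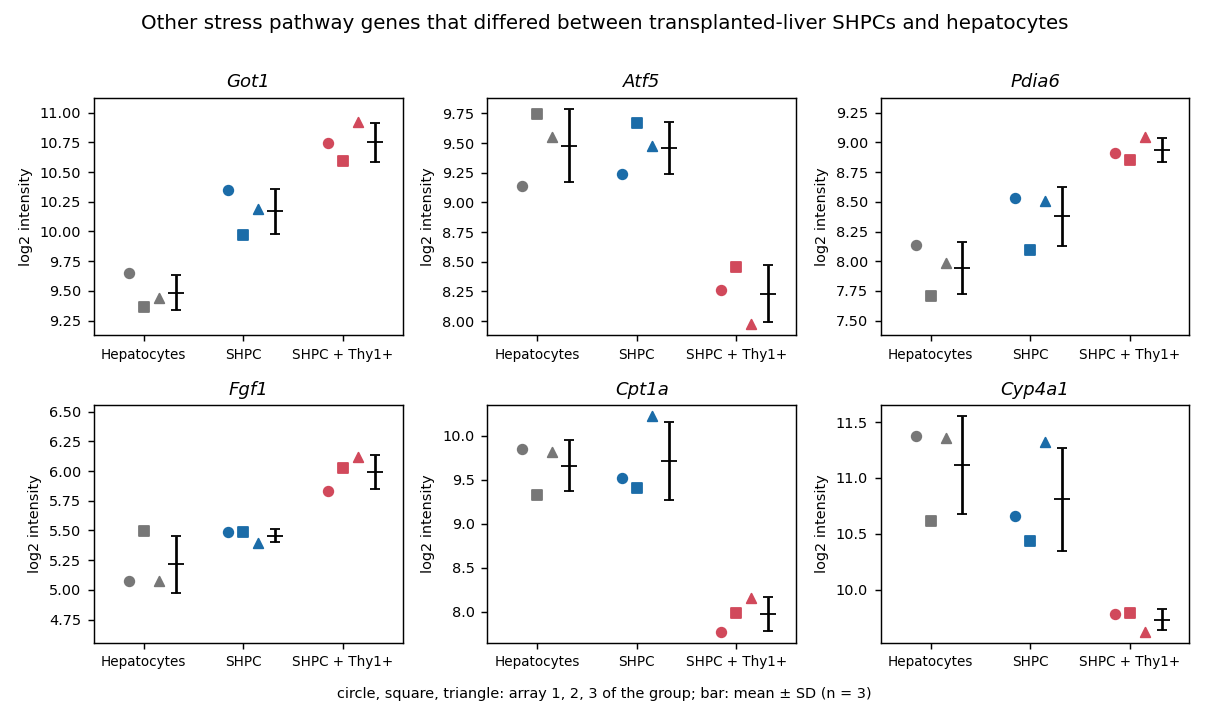
Log2 intensity on each array of the 6 other stress pathway genes that passed between SHPCs of transplanted livers and hepatocytes, drawn as for the listed genes (symbols, arrays 1 to 3; bars, mean ± SD, n = 3 each). Every panel spans at least 2 log2 units. Got1, Pdia6 and Fgf1 are highest and Atf5, Cpt1a and Cyp4a1 lowest on the arrays of transplanted livers.

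Among these 6 genes the call of Got1 held without each of the 9 arrays (largest limma adjusted p = 0.0479). The call of Atf5 ended without hepatocyte array 2 or 3 or any Thy1 array (limma adjusted p = 0.0613 to 0.118). That of Pdia6 ended without any hepatocyte or Thy1 array (0.0573 to 0.140). Those of Cpt1a and Cyp4a1 ended without hepatocyte array 1 or 3 or any Thy1 array (0.0568 to 0.0787 and 0.125 to 0.189), and that of Cyp4a1 also without SHPC array 1 (0.0521). That of Fgf1 ended without hepatocyte array 1 or 3, SHPC array 1 or 3 or any Thy1 array (0.0670 to 0.217) and when no SHPC array entered (0.0602). After median centring the calls of Got1 and Atf5 held (0.0280 and 0.0281), and those of the other 4 ended (0.0514 to 0.170).

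The genes whose course over the 9 arrays was most like that of Nupr1 were found by the root mean square difference between log2 values, each centred on its gene's mean. They were the vitamin C transporter gene Slc23a1 at 0.22, the transketolase gene Tkt at 0.22, the quinone reductase gene Nqo1 at 0.23 and the phosphate transporter family gene Slc17a3 at 0.24. Between the SHPC groups these differed by 1.27, 1.51, 1.09 and 1.22. For Fgf21 they were Lsm5, an RNA-processing gene, at 0.21, then probe sets annotated as Or8c20, Rpl10l4 and Mir3581 at 0.24, 0.25 and 0.25. Or8c20 and Mir3581 were dim, at log2 2.91 to 4.16 and 2.35 to 4.15. Mir3581 exceeded the 25th percentile on 1 of 3 Thy1 arrays. This is a description over 9 arrays that share their groups and the pair of arrays that stood apart.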

How the data were processed

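RNA of laser-microdissected rat liver was hybridised to 9 whole-transcript Affymetrix arrays, 3 in each of 3 groups. The authors deposited a table of intensity values for 36685 probe sets, per the submitters' processing notes with RMA, of which no version is given in the sources used here. The values run on a linear scale, and log2 was taken here. Of these probe sets 18511 had 1 gene symbol in the platform annotation, 575 several and 17599 none; 18394 were found by Entrez ID in RefSeq's gene table. Where a gene had several probe sets, the one with the highest mean was taken. Genes above the array's 25th percentile on 3 or more arrays entered the tests, 15793 of 18166.

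The tests used limma 3.58.1 (R 4.3.3) with lmFit and eBayes on the 3 group means of all 9 arrays (6 residual degrees of freedom), Benjamini-Hochberg adjustment over all genes tested and a threshold of 0.05. The fit was tested on simulated data. The number of arrays limits the precision. 0 columns belonged to other samples.

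The listed genes, the 12 pathway lists and the arrays called apart were chosen with earlier results of these data known. Named genes were the listed ones, list members that passed or had the smallest p in a direction (not all are printed), and the 4 nearest to Nupr1 and Fgf21, leaving out numbered loci. Phgdh, Psph, Cth, Gdf15, Sesn1, Hspa5, Acot1 and Ppargc1a were named where this rule did not choose them for that comparison, after their values were seen. The alternatives were other scalings (median centring, quantile normalization, cyclic loess), no filter, array weights, the compared groups alone, the mean of probe sets, a replicate block, both arrays that stood apart left out, and each array left out.

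The array numbers pair SHPCs with hepatocytes by the data, not by the labels: deviations from the group means of same-numbered arrays correlated at 0.526, 0.705 and 0.341 over genes. Arrays 1 and 3 also correlated across numbers (0.237 and 0.480). With the Thy1 arrays every same-numbered correlation was under 0.1.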

Additional observations from a re-analysis of the deposited data

How the results depend on the processing

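The number of listed genes passing in SHPCs against hepatocytes was 0, and 1 with array weights or without both arrays that stood apart; leaving out 1 array gave 0 to 1, with the 1 without SHPC array 2 (Psat1). In SHPCs of transplanted livers against hepatocytes it was 1 of 7, and 3 with array weights, 2 after cyclic loess or renewed quantile normalization, 0 after median centring and 0 to 2 without 1 array (0 without any hepatocyte or Thy1 array, 2 without SHPC array 2). Between the SHPC groups 4 of 9 genes had arrays apart, and 4 to 5 under every alternative. Other stress pathway genes passing in SHPCs against hepatocytes were 0, and 10 with array weights and 1 without both arrays. Against hepatocytes in transplanted livers they were 6, and 54 with array weights, 21 without both arrays, 17 after cyclic loess, 11 in the compared groups alone, 10 after quantile normalization, 2 after median centring and 1 to 17 without 1 array, with 17 without SHPC array 2, 2 without hepatocyte array 1 and 1 without hepatocyte array 3 or any Thy1 array. Between the SHPC groups they were 0, and 8 with array weights, 2 after cyclic loess or without both arrays, 1 after quantile normalization and 0 to 1 without 1 array, with the 1 without SHPC array 1. The counts over all genes tested moved as well. In transplanted livers against hepatocytes 136 of 15793 passed higher and 50 lower, and 1702 and 983 with array weights. There it was 405 and 171 without both arrays, 301 and 138 after cyclic loess, and 34 and 13 after median centring. In SHPCs against hepatocytes it was 5 and 5, 237 and 138 with array weights, and 50 and 11 without both arrays. Between the SHPC groups it was 0 and 1, and 160 and 99 with array weights. The cause of these changes was not tested.

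With the replicate block the listed genes passing were 2 of 7 in transplanted livers against hepatocytes. The other pathway genes passing were 12 there and 3 between the SHPC groups, where the numbers pair nothing. Over all genes tested 291 passed higher and 76 lower in the former, and 42 and 22 in the latter. Between SHPCs and hepatocytes the data match arrays 2 but do not settle arrays 1 and 3. There the block changed no call of these genes, nor did a block within those groups alone, which was added after seeing the data. Small differences changed sign. Ddit3 in SHPCs against hepatocytes went to −0.01 after median centring, −0.0154 after quantile normalization, −0.0023 after cyclic loess, −0.0577 with array weights and −0.0707 to 0.0610 without 1 array. Fgf21 there lay between −0.0222 and 0.29 and Asns between −0.1866 and 0.11 without 1 array, and Asns of transplanted livers against hepatocytes between −0.0889 and 0.1788. With the motif form TGATGCAA 3 of 9 listed genes held a match, not 4.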

Other observations

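Some values of the listed genes were equal on several arrays to the 4 decimals deposited. Trib3 had a linear intensity of 32.4 and Atf4 one of 451 on Thy1 arrays 1 and 2. Asns had 17.8 on hepatocyte arrays 1 and 2 and on Thy1 array 1. Over all 36685 probe sets, 319, 337 and 648 were equal on all 3 arrays of hepatocytes, SHPCs and SHPCs of transplanted livers, and 0 of the listed genes were among them. Equal values lower the spread that enters a fit, and the cause was not tested.

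The cell cycle inhibitor gene Cdkn1a, which stands in the list of CHOP targets and is better known as a target of p53, had the smallest p of the pathway genes in SHPCs against hepatocytes. It lay at 8.23, 8.12 and 7.99 in hepatocytes, 7.43, 7.13 and 7.29 in SHPCs and 7.71, 7.54 and 7.66 in SHPCs of transplanted livers, with no overlap between the 3 groups. The log2 difference of SHPCs from hepatocytes was −0.83 ± 0.13 (SE) and did not pass (limma adjusted p = 0.102).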
